A study of Saccharomyces cerevisiae with 6 samples.

Results

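DNA cutting by a fusion of Rec8 to a nuclease was compared between ctf19-9A and WT budding yeast in meiotic prophase I. The part described is the pericentromere of chromosome X, taken as the 40 kb around its centromere. It comprised every listed bin of 20 bp on chromosome X whose start lay from 416364 to 456364 on build R64, that is, within 20 kb of the middle of the gap between the innermost left-arm gene, PRE3, and the innermost right-arm gene, AVT1. The gap runs from 435927 to 436801 (875 bp), and the place of the centromere inside it was not resolved. Of 14224 listed bins in all, 459 met this rule, which used position alone. A bin is listed where the authors' test of the genotypes gave an adjusted p under 0.05.

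Rec8 was mapped by chromatin endogenous cleavage with sequencing (ChEC-seq), in which a protein fused to micrococcal nuclease cuts the DNA next to it once calcium is added. The 3 ctf19-9A cultures carried Rec8-3xFLAG-MNase, ctf19-9A and ndt80-delta, and the 3 WT cultures carried Rec8-3xFLAG-MNase and ndt80-delta. Each was a diploid colony from a separate zygote, and the strain background is given only as X and Y. All spent about 16 h in YP acetate before 4.5 h in 1% potassium acetate, and were then treated with 2 mM CaCl2 for 5 min. Both genotypes lacked NDT80, the transcription factor gene needed to leave prophase I, so cells of either genotype were arrested at that stage.

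Rec8 is the meiotic kleisin of cohesin, the ring complex that holds sister chromatids together. Cohesin is loaded at kinetochores, where the phosphorylated N-terminal tail of Ctf19 binds the cohesin loader, and in ctf19-9A residues of that tail are changed to alanine. From the centromere cohesin spreads along both arms and accumulates where genes are transcribed towards each other, so convergent gene pairs near a centromere are known to mark the edges of the pericentromere in yeast.

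For each bin the authors' deposited table gives a fold change on the log2 scale with its p-value and adjusted p, and it has no value for any single culture. Depth per sample is therefore unknown, no SD between cultures can be given, and the error printed here is the standard error (SE) implied by each fold change and its p-value. The direction of the ratio is not stated. The likely reading, given the known role of Ctf19, puts ctf19-9A on top and WT below. Under it a negative value means less DNA cut by the Rec8 fusion in ctf19-9A. With the ratio the other way round, every direction below would turn. Every bin described has already passed the authors' threshold, so a median over these bins lies farther from 0 than the average change of the region would.

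All 459 listed bins of the chromosome X pericentromere were negative. They made up 22.95% of the 2000 bins of the window, whereas negative bins made up 0.925% of all bins of the nuclear chromosomes, 3.6% of the bins implied to have entered the authors' adjustment, and 16.0% of the same window on the other 15 chromosomes. Positive bins numbered 0 in the window, against 0.19% of the same window on the other 15 chromosomes and 1.43% of all nuclear bins, and 5 of the 16 chromosomes had none in this window. The median log2 fold change was -0.81, with quartiles of -0.93 and -0.64, values from -1.22 to -0.44 and a median SE of 0.18. The median equals a 1.75-fold difference between the genotypes. An adjusted p under 0.01 was reached by 327 bins, 16.35% of the window against 10.2% of the other 15 windows. These were 71.2% of the listed bins on X and 63.7% of the negative bins of the other windows. A log2 fold change of -1 or lower was found in 62 bins, 3.1% of the window against 2.28% of the other 15 windows. As a share of negative bins this was 13.5% on X and 14.2% in the other windows.

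**Figure D1:**
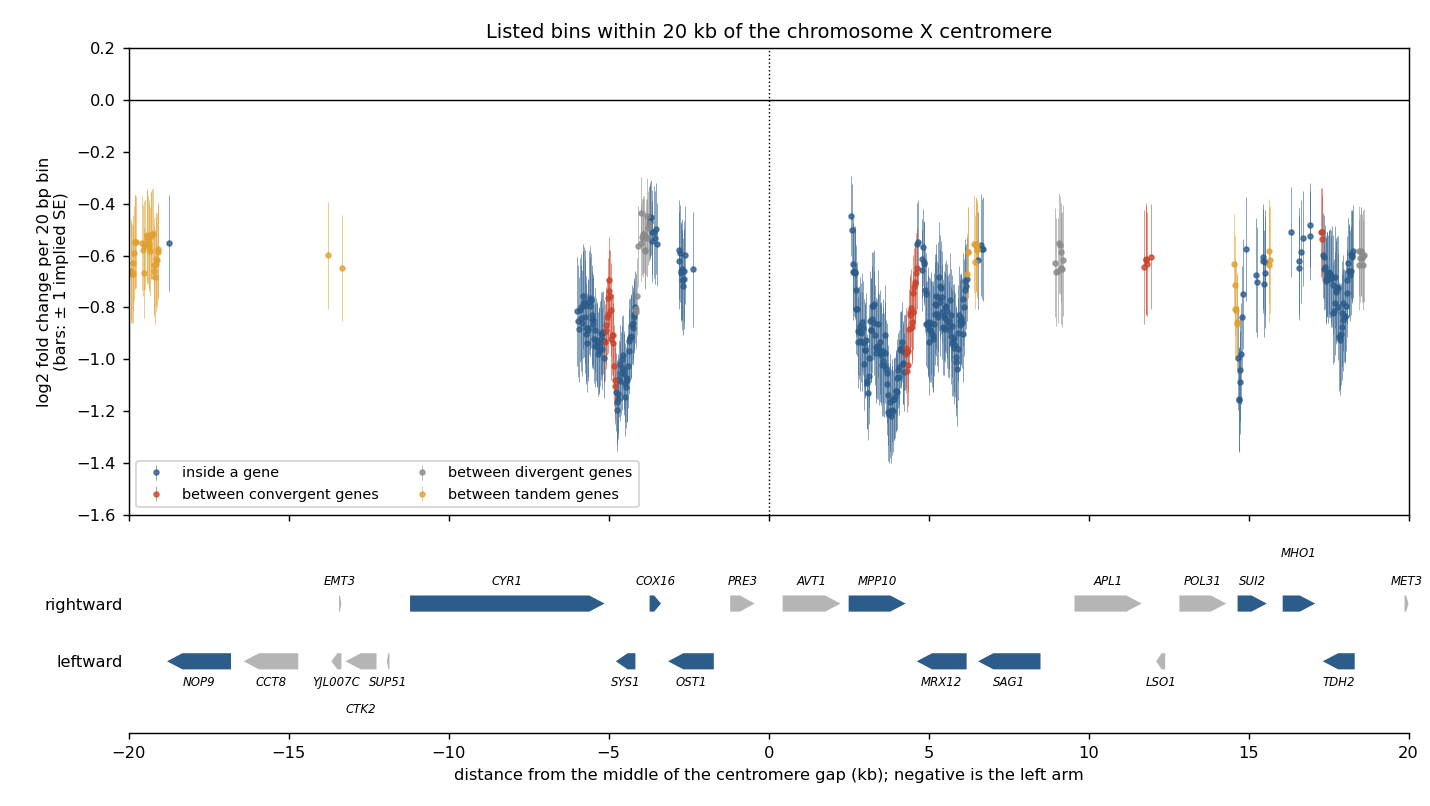
Log2 fold change of each of the 459 listed bins against distance from the middle of the centromere gap in kb, with bars of 1 implied SE and colours for the place of the bin, above the genes drawn by direction of transcription (blue for genes with a listed bin, grey for those without). The bins form a block on each arm, from 3.49 to 5.97 kb on the left and from 2.59 to 6.25 kb on the right, and no bin lies closer to the centre than 2.37 kb.

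Most listed bins lay in a block on each arm within 7 kb of the centre. On the left arm the block was the longest run of bins with starts at most 100 bp apart, 117 bins in the 2.5 kb from 430381 to 432880, with 8 bins of that stretch not listed. On the right arm it was 2 such runs, of 105 bins from 438941 to 441040 and of 74 bins from 441141 to 442620, with 5 unlisted bins between them. They were joined after their values were seen, as 179 bins in 3.68 kb. Together these blocks held 296 of the 459 bins (64.5%) and 58 of the 62 bins at -1 or lower. Their medians were -0.87 on the left and -0.88 on the right, whereas the remaining 163 bins, on either side of the blocks, had a median of -0.64 and reached -1.16.

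Next to the centromere no bin was listed. The innermost listed bin of the left arm lay 2.37 kb from the centre in OST1, which encodes a subunit of oligosaccharyltransferase (433981 to 434000), with a value in the authors' deposited table of -0.65 (SE 0.22, adjusted p 0.0423). The innermost of the right arm lay 2.59 kb away at the start of MPP10 (438941 to 438960), with -0.45 in the authors' deposited table (SE 0.15, adjusted p 0.0444). The 4.94 kb between them hold PRE3, for a catalytic subunit of the proteasome, the centromere gap, and AVT1, for a vacuolar amino acid transporter, and none of these had a listed bin. On the other 30 arms the innermost negative bin lay 0.637 to 8.34 kb from the centre, with a median of 2.55 kb. Untested bins and bins without a detected change cannot be told apart here.

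On the left arm 90 of the 117 bins of the block lay in the convergent pair CYR1 and SYS1 or between them. The rest of the block lay between SYS1 and COX16 or in COX16. The interval between CYR1 and SYS1 (431238 to 431588) is centred 4.95 kb from the centre. CYR1 encodes adenylate cyclase and is transcribed towards the centromere. It is 6081 bp long, and its 42 listed bins, with a median of -0.88, all lay at the 3′ end. The first 86.1% of its length had none, and from 423041 to 430380, a length of 7.34 kb, no bin was listed at all. SYS1, for a Golgi membrane protein, is transcribed away from the centromere, and all 31 of its bins were listed, with a median of -1.03. The lowest bin of the arm lay in its 3′ part (431621 to 431640), with -1.20 in the authors' deposited table (SE 0.16, adjusted p 1.46e-10). This is a 2.29-fold difference, with a 95% interval of 1.86 to 2.83 that makes no allowance for its choice as the lowest bin.

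All 17 bins of the interval between CYR1 and SYS1 were listed, with a median of -0.89. The values were nearest to 0 in the middle of the interval and lower towards both genes. In the authors' deposited table the bin nearest to 0 was -0.70 (SE 0.17, 431381 to 431400), and the lowest was -1.10 (SE 0.15, 431561 to 431580) beside SYS1. CYR1 had its own lowest bin, -0.997 (SE 0.15) in the authors' deposited table, at its 3′ end (431221 to 431240).

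Between SYS1 and the centromere the values came closer to 0. The divergent interval between SYS1 and COX16 held 18 listed bins of 22, with a median of -0.53 and a lowest value in the authors' deposited table of -0.82 (SE 0.14, adjusted p 2.58e-06). COX16, for a mitochondrial protein needed to assemble cytochrome c oxidase, held 9 of 18, with a median of -0.51. OST1 held 12 of 72, with a median of -0.66, a lowest value in the authors' deposited table of -0.72 (SE 0.19, adjusted p 0.00503), and 11 of its 12 bins past the middle of the gene, towards the 3′ end. The interval between COX16 and OST1 (433001 to 433220) is the convergent interval nearest to the centromere on this arm, 3.25 kb away, and held 0 of 11 bins.

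On the right arm the block covered the convergent pair MPP10 and MRX12, whose interval (440647 to 440993) is centred 4.46 kb from the centre. MPP10 encodes a component of the small-subunit processome, which matures ribosomal RNA, and is transcribed away from the centromere. Listed bins covered 85 of its 89, with a median of -0.96, and 33 of them were at -1 or lower. The lowest bin of the whole window lay in the 3′ part of MPP10, 3.83 kb from the centre (440181 to 440200), with -1.22 in the authors' deposited table (SE 0.18, adjusted p 1.53e-08). This is a 2.33-fold difference, with a 95% interval of 1.82 to 2.98, again with no allowance for that choice.

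Along MPP10 the values became lower towards the 3′ end. From 0 to 20% of the length, counted from the 5′ end, the median was -0.70 over 14 bins. From 60 to 80% it was -1.15 over 17, and from 80 to 100% it was -1.04 over 18. SYS1 ran the same way, with a median of -0.85 over the 6 bins of its 5′ 20% and -1.13 over the 7 of its 3′ 20%. MRX12, for a mitochondrial protein, did not, with -0.84 over 16 bins in its 5′ 20% and -0.63 over 10 in its 3′ 20%. Neighbouring bins can share fragments and have SEs of 0.14 to 0.22, so these gradients are given without a test.

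MRX12 is transcribed towards the centromere, and 73 of its 78 bins were listed, with a median of -0.84. Its lowest bin lay near its 5′ end (442241 to 442260), with -1.04 in the authors' deposited table (SE 0.22, adjusted p 0.000208). All 18 bins of the interval between MPP10 and MRX12 were listed, with a median of -0.82. The authors' deposited table gave -1.04 (SE 0.16) on the MPP10 side (440681 to 440700) and -0.65 (SE 0.16) on the MRX12 side (440981 to 441000). In each block the lowest bin thus lay inside a gene of the pair, SYS1 or MPP10, and not in the interval between them. The lowest bins of the intervals, -1.10 (SE 0.15) and -1.04 (SE 0.16), had 95% intervals that overlapped those of SYS1 and MPP10. Their order was not tested.

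**Figure D2:**
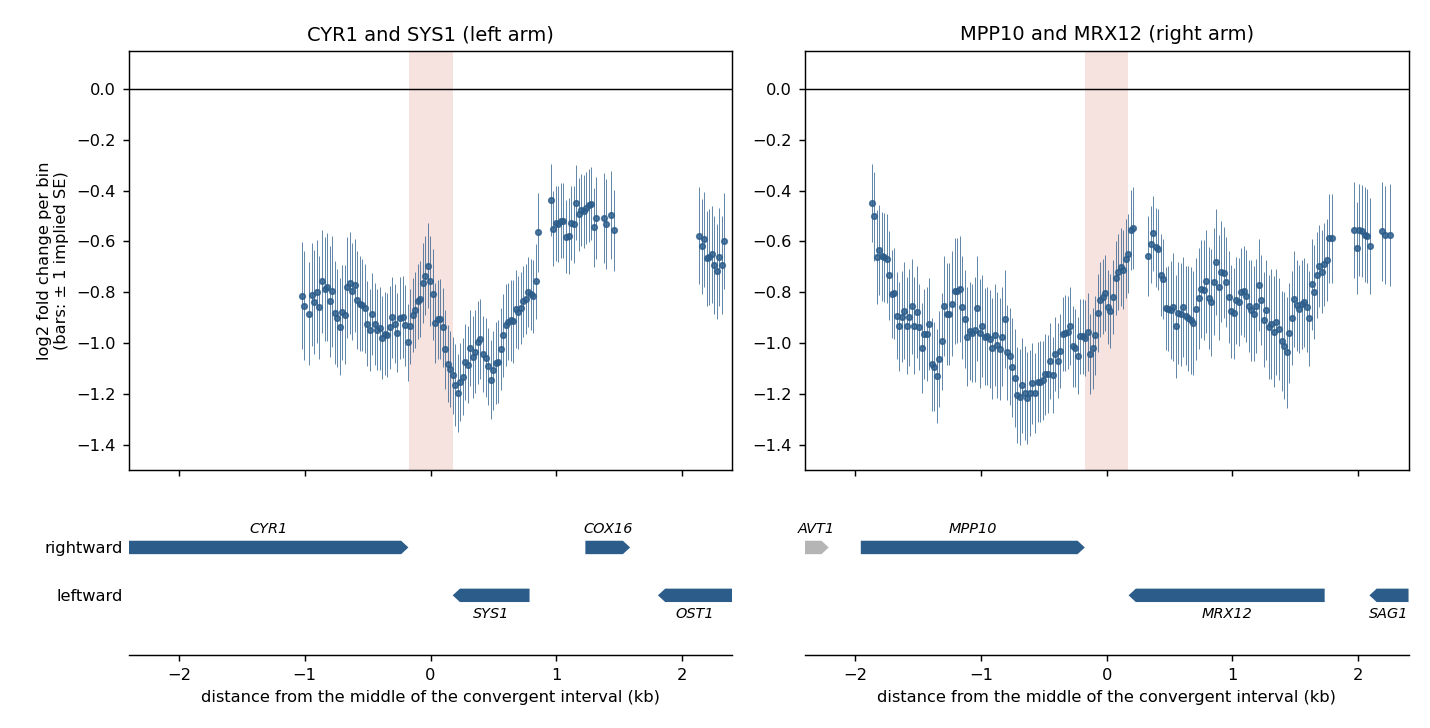
Log2 fold change per bin against distance in kb from the middle of the convergent interval, for CYR1 and SYS1 (left panel) and MPP10 and MRX12 (right panel), with bars of 1 implied SE, the interval shaded and the genes drawn below. All 17 and all 18 bins of the shaded intervals are listed, and the lowest bins, -1.20 and -1.22, lie in SYS1 and in MPP10.

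The lowest bins of the 2 arms differed by less than their error. The right minus left difference was -0.02 with a 95% interval of -0.49 to 0.45, taking their SEs as independent. The interval makes no allowance for the choice of each bin as the lowest of its arm. The interval does not show that the arms were equal. In number the arms differed, with 295 listed bins on the right and 164 on the left, and medians of -0.82 and -0.79. Within 10 kb the counts were 198 and 129, and from 10 to 20 kb they were 97 and 35.

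Farther out on the right arm, the lowest single bins lay in 2 genes, SUI2 and TDH2. SUI2 encodes the alpha subunit of the translation initiation factor that brings the initiator tRNA to the ribosome, and 16 of its 46 bins were listed, with a median of -0.73. Its lowest bin lay at the 5′ end, 14.7 kb from the centre (451041 to 451060), with -1.16 in the authors' deposited table (SE 0.20, adjusted p 2.07e-06). The 5′ 20% of SUI2 had a median of -1.02 over 8 bins, and the 4 bins at -1 or lower outside the 2 blocks were all in SUI2. The interval upstream of it, shared with POL31, for a subunit of DNA polymerase delta, held 6 listed bins of 18, with a median of -0.81.

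TDH2, for a glyceraldehyde-3-phosphate dehydrogenase of glycolysis, had 48 of its 50 bins listed 17.8 kb from the centre, with a median of -0.69. Its lowest bin lay in the middle of the gene (454201 to 454220), with -0.93 in the authors' deposited table (SE 0.21, adjusted p 0.000935). TDH2 shares long near-identical stretches with TDH1 and TDH3, and how the authors handled reads that match several places is not stated in the sources at hand, so the placement of these reads is uncertain. Its convergent partner MHO1, a gene of unknown function, had 7 listed bins of 51, with a median of -0.53. The interval between them held 3 of 12, with a lowest value in the authors' deposited table of -0.53 (SE 0.16, adjusted p 0.0221).

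The other places with listed bins had few or weak ones. SAG1, for the alpha-agglutinin of mating, held 4 of 98 bins, all at its 3′ end, with a median of -0.58. NOP9, for a ribosome synthesis factor, held 1 of 100, with -0.55 in the authors' deposited table (SE 0.18, adjusted p 0.0376). The tandem interval between MRX12 and SAG1 held 9 of 17 bins, and that between SUI2 and MHO1 held 3 of 24. The divergent interval between SAG1 and APL1 held 9 of 53, and that between TDH2 and MET3 held 9 of 78. The medians of these 4 intervals ran from -0.63 to -0.58. The convergent interval between APL1, for an adaptin of clathrin coats, and LSO1 held 5 of 23, with a median of -0.62. At the left edge of the window, the tandem interval between a tRNA gene, YNCJ0019C, and NOP9 held 32 of its 59 bins inside the window. Their median was -0.58. Single bins lay in the tandem intervals on either side of YJL007C, with -0.60 and -0.65 in the authors' deposited table.

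Of the 22 annotated genes that overlap the window, 11 (50.0%) held a negative bin, against 2.74% of all nuclear genes and 41.5% of the 357 genes in the same window of the other 15 chromosomes. Inside the window the other 11 held none. These were CCT8, for a chaperonin subunit, YJL007C, the tRNA genes EMT3 and SUP51, CTK2, PRE3, AVT1, APL1, LSO1, POL31 and MET3. CTK2 encodes a subunit of the kinase that modifies the tail of RNA polymerase II, and MET3 encodes ATP sulfurylase. Only 7 bins of MET3 lie in the window, and MET3 has a negative bin beyond its edge. Of the 328 bins inside genes, 191 (58.2%) lay past the middle of the gene, towards its 3′ end, against 56.6% over the other 15 windows. CYR1 contributed 42 of the 191, and without it the share on X was 52.1%. In MRX12, 34 bins lay past the middle and 39 before it, and in SUI2 the counts were 7 and 9.

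**Figure D3:**
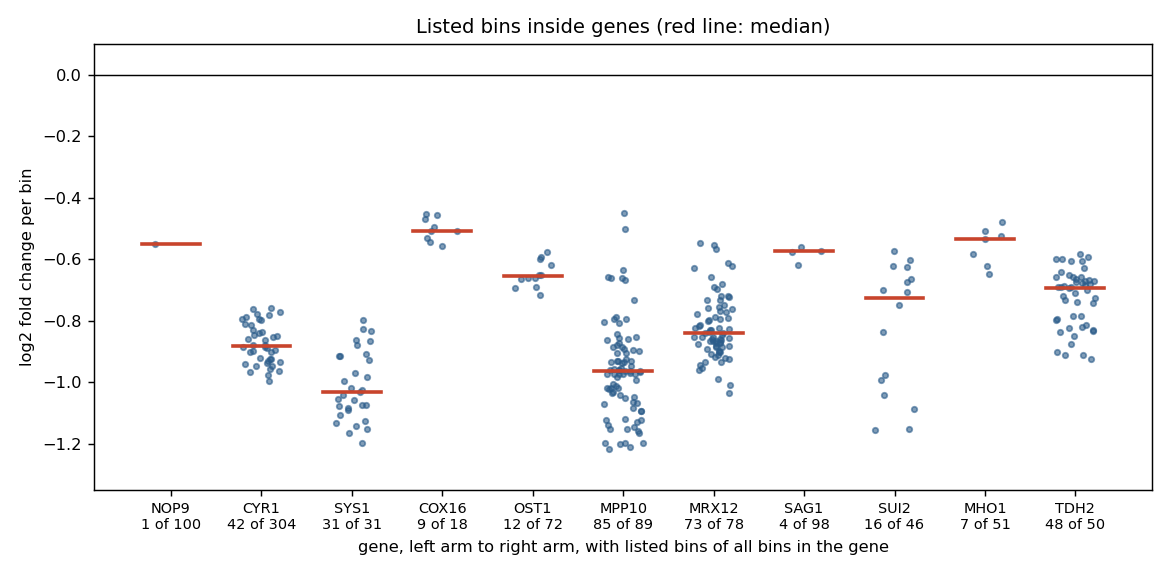
Log2 fold change of every listed bin inside the 11 genes that hold one, in order from the left to the right arm, with the number of listed bins of all bins of the gene under each name and the median as a red line. SYS1 and MPP10 have the lowest medians, -1.03 and -0.96, and COX16 the one nearest to 0, -0.51.

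Of the 5 convergent intervals in the window, 4 held a negative bin, against 41.5% of the 94 convergent intervals in the same window of the other 15 chromosomes. They filled 4.05% of the window and held 43 of its listed bins (9.37%, exact 95% binomial interval 6.86 to 12.4%, which covers counting error only and treats bins as independent). Of these 43, 35 lay in the intervals of CYR1 and SYS1 and of MPP10 and MRX12, where every bin was listed, and 8 of 46 bins were listed in the other 3. Listed bins made up 53.1% of convergent intervals, 23.1% of genes, 19.3% of tandem intervals and 15.5% of divergent intervals. Medians were -0.82 in convergent intervals and -0.86 in genes, and -0.59 in tandem and -0.58 in divergent intervals. No test was made of these shares, since the bins that could have been listed are not known and bins are not replicates.

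Set beside the other chromosomes, X ranked 4 of 16 by its number of negative bins within 20 kb, after IV with 537, V with 515 and XVI with 482, and the other 15 ran from 105 to 537 with a median of 327. Its right arm had 295, where the other right arms had 13 to 260, and its left arm had 164, where the others had 79 to 361 with a median of 154. Over all 30 other arms, left and right together, the counts ran from 13 to 361, a range that includes both arms of X. The right arm held 64.3% of the negative bins on X, and between 12.1% (III) and 76.1% (VII) on the others. The median of its negative bins, -0.81, lay within the range of the others, -0.94 to -0.56. Its lowest bin, -1.22, lay within their range of -1.55 to -0.83, and 62 of its bins were at -1 or lower, against 0 to 160. The share of its negative bins in convergent intervals was 9.37%, against 8.39% over the others pooled and a range of 1.87 to 27.2%. X was 1 of 6 chromosomes with no listed bin in the centromere gap. Where other chromosomes had listed bins in the gap, these were all positive. There is 1 chromosome X and no value per culture, so these ranks are descriptions without a test.

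**Figure D4:**
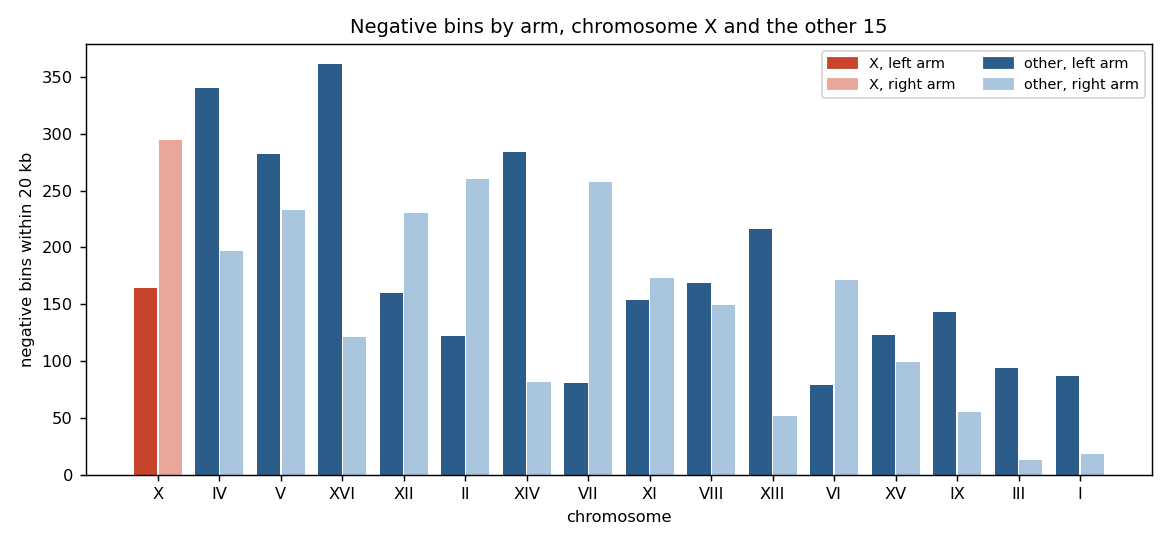
Number of negative bins within 20 kb of the centromere on the left and right arm, for chromosome X (red, first) and the other 15 chromosomes (blue) in order of their total. X has 164 on the left and 295 on the right arm. The other right arms have 13 to 260, and all 30 other arms together have 13 to 361.

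On both arms of X the lowest bin lay within 1 kb of a convergent interval, 0.042 kb away on the left and 0.457 kb on the right. On 21 of the 30 other arms it lay in or within 1 kb of one. How often any listed bin lies that near was not computed, so these counts show no preference for convergent intervals. The distance of the lowest bin from the centre was 3.83 kb on the right and 4.73 kb on the left, and on the other 30 arms it ran from 2.46 to 16.9 kb with a median of 5.98 kb. The convergent interval nearest to the centromere held negative bins on the right arm of X, 18 of them, and 0 on the left arm, while 20 of the other 30 arms had at least 1 there.

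At the edges of the window the listed bins had similar values on both sides. Only bins past the threshold have a value, so this does not show that the change ran on across the edges. On the left, in the authors' deposited table, the outermost bin inside (416421 to 416440) had -0.66 and the nearest bin outside (416281 to 416300) -0.61. On the right, in the authors' deposited table, the outermost bin inside (454961 to 454980) had -0.60, and the nearest outside, in MET3 (456881 to 456900), -0.54. Only 17 further negative bins lay on chromosome X, 8 on the left and 9 on the right, and the farthest of them lay 20.3 kb and 21.9 kb from the centre. The nearest positive bin of the left arm lay in MAD3, a spindle checkpoint gene, 25.9 kb from the centre, with 0.54 in the authors' deposited table (SE 0.17, adjusted p 0.0309).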

How the data were processed

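Only 1 file was used, the authors' comparison of ctf19-9A and WT. The log2 fold change, shrunken log2 fold change, p-value and false discovery rate of each 20 bp bin are the authors' deposited values, per the file headers. Tools listed in the submitters' processing notes, with no role, are Bowtie2 2.5.0, DESeq2 (version not listed) and deepTools 3.4.3, beside FastQC 0.11.9, with builds R64 and sacCer3. Their settings, and filters on repeated sequence, are not stated in the sources at hand. The table lists bins with an adjusted p under 0.05, and the last one implies that 154927 bins entered a Benjamini-Hochberg adjustment, 25.7% of the 603073 nuclear bins.

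The implied SE was the absolute log2 fold change over the normal quantile that its two-sided p-value gives, and 95% intervals are 1.96 SE on either side. Genes came from the RefSeq table of R64, with strand and arm read from the systematic names. A bin was placed by its midpoint. An interval between genes was called convergent, tandem or divergent by the direction of its neighbours. Runs joined bins whose starts lay at most 100 bp apart. Functions were tested on simulated data, with Python 3.11.15, pandas 2.3.3 and scipy 1.17.1. Tests on counts had been planned only for tables with values per culture, and none was made.

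Named were every gene with a listed bin, both genes of each convergent pair, the genes beside the centromere, and the lowest, innermost and outermost bin of each arm, with the lowest bin of longer runs. The members and lists were chosen with earlier results of these data known.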

Additional observations from a re-analysis of the deposited data

How the results depend on the processing

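Of 61 values recomputed under the alternatives, 39 stayed near the main value and 22 moved. Near meant counts within 1.5 times, shares within their exact interval and medians within 0.18, the median SE of a single bin. That SE is not the error of a median over many bins, and the exact interval treats bins as independent. Near is therefore a working limit and not a test. No sign could change, since medians were taken over negative bins only. Using the shrunken value without a size limit kept the same bins, since calls rest on the adjusted p. Its counts, share and rank could therefore not move. The count of 0 positive bins could not rise with a stricter limit or within 10 kb. These fixed values are among the 39, so that tally is no measure of robustness. With an adjusted p under 0.01, 103 left-arm bins, 7 genes and 2 convergent intervals were left. With a log2 size of at least 1, 62 bins were left, 21 on the left and 41 on the right arm, in 4 genes and 2 convergent intervals, with a median of -1.08, and X ranked 7 among 16. The shrunken log2 fold change had a median of -0.58, and no bin reached a shrunken size of 1, which left 0 bins, 0 on either arm, in 0 genes and 0 convergent intervals. Within 10 kb, 7 genes and 2 of 3 convergent intervals held a bin, since fewer lie there. Within 30 kb, 5 positive bins entered, all on the left arm. Adding 200 bp of each flanking gene end put 20.3% of bins in convergent intervals, by construction. Joining only touching bins gave 38 runs and joining starts at most 500 bp apart gave 9, in place of 22. No paired analysis was possible because the table holds no value per culture, and for the same reason leaving out a replicate was not run. Depth per sample is unknown.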

Other observations

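Positive bins began farther from the centre on the right arm of X than on the left. The nearest positive bin of the right arm (540601 to 540620, between HIT1 and the tRNA gene YNCJ0026W) lay 104 kb from the centre. Its value in the authors' deposited table was 0.61 (SE 0.20, adjusted p 0.0343). The nearest of the left arm lay 25.9 kb away. This distance was not computed for the other chromosomes, so whether 104 kb is unusual is unknown. Chromosome X had 368 positive bins in all, each outside the window, with a median of 0.54.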
